A study of Mus musculus with 12 samples.

Results

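De novo purine synthesis builds the purine ring on ribose phosphate and ends in the nucleotides IMP, AMP and GMP. The 10 genes chosen by name here encode the steps from phosphoribosyl pyrophosphate (PRPP) to IMP and on to GMP: Prps1, Ppat, Gart, Pfas, Paics, Adsl, Atic, Impdh1, Impdh2 and Gmps. They were read as the array feature that carries the gene's symbol alone, which existed for 8 of the 10, out of 30768 genes named on the array. Impdh2 had no feature under its own symbol in the annotation used, and the feature of Pfas also carries the symbol of a microRNA gene, so no value is given for either. Each of the other 8 genes had 1 feature, so that no choice between features was made.

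Livers came from 12 mice of the C57BL6/J strain killed at 12 weeks of age, each on its own Affymetrix array. The knockout (KO) mice are labelled ENT3 -/- and comprised 3 females and 3 males, and the wild-type (WT) mice are labelled ENT3 +/+ and comprised 3 females and 3 males. Sex was read from the letter in each title, and Xist signal was 10.28 to 12.39 in the F arrays and 4.18 to 4.45 in the M arrays. ENT3, encoded by Slc29a3, carries nucleosides across lysosomal and mitochondrial membranes. No label states which exons the deletion covers, in which cells it acts, or whether mice shared a litter, so p-values measure only the spread between these mice. Slc29a3 signal was 4.10 to 4.19 in KO livers and 4.82 to 5.29 in WT livers (-0.94 ± 0.07, limma adjusted p = 0.000324), with every array of both genotypes below the 95th percentile of the negative controls. Whether its probes lie in the deleted stretch is not known.

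The pathway is used by the liver to make purines for its own needs and for export to other tissues. PRPP synthetase supplies the activated ribose, and Ppat, the amidophosphoribosyltransferase, catalyses the committed step, which purine nucleotides inhibit. Gart, Pfas, Paics, Adsl and Atic then complete the ring with glycine, glutamine, aspartate, bicarbonate and formyl groups carried on folate. Cells can instead recover purines from nucleosides and bases by salvage.

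Values are deposited log2 signals, and each difference is KO minus WT on that scale with its standard error (SE) from the limma fit, and 95% intervals are unadjusted. A difference counts as called at an adjusted p under 0.05, by Benjamini-Hochberg over all 65956 transcript features. All 12 arrays share a highest value of 19.93, above what a scanner can record. How that scale was set is not known, so folds are those of the deposited scale. None of the 8 genes reached that ceiling. Over the array 6432 features were called (9.75%), 3482 higher in KO (5.28%) and 2950 lower (4.47%). The balance moved with the scaling: quantile normalization gave 2555 features higher and 4091 lower in KO, and centring arrays on their medians gave 2538 higher and 4001 lower. The poly-A spikes, bacterial transcripts added before labelling, averaged 5.44 ± 0.36 on KO arrays and 6.30 ± 0.32 on WT arrays (SD, n = 6 each; two-sided exact permutation of genotypes inside each sex, p = 0.005, the lowest value 400 arrangements allow). The negative controls had their 95th percentile at 6.68 ± 0.15 on KO arrays and 6.32 ± 0.08 on WT arrays (SD, n = 6 each; exact permutation p = 0.005). Hybridisation spikes, added after labelling, were at 10.27 ± 0.21 on KO arrays and 10.36 ± 0.16 on WT arrays (SD, n = 6 each; exact permutation p = 0.395).

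The signal of 4 of the 8 measured genes fell in KO livers and none rose. Those that fell were Paics, Ppat, Prps1 and Adsl, and the 4 not called were Gart, Atic, Impdh1 and Gmps. The share of all features called lower was 4.47%, but most features lay near the negative controls. A second fit took only the 10483 features above their 95th percentile on at least 3 arrays. There 2708 features were called lower and 2285 higher, and 4 of the 6 purine genes in that set fell. Falls were thus a larger share of that set than the 4.47%, but a feature could enter it through WT arrays alone. Adsl did so, above the percentile on 0 of 6 KO and 6 of 6 WT arrays, and the percentile was lower on WT arrays. The filter may therefore favour falls, here and wherever the 10483 features are used below. The median difference over the 8 genes was -0.22, beside 0.05 over all features and 0.03 over all named genes. In 3 of the 8, Paics, Prps1 and Adsl, every KO liver lay below every WT liver, a relation that held for 1.94% of all features, and none had every KO liver above every WT liver (1.97% of features). When the poly-A signal of each array entered the fit as a covariate, none of the 8 was called, and 3 features were called on the whole array. The same fit left none of the genes named from the other lists called, nor Slc29a3 (-0.80, adjusted p = 0.222). Poly-A signal was 5.10 to 6.06 on KO arrays and 5.98 to 6.81 on WT arrays, so this covariate largely follows genotype. In that fit the SE of Paics rose from 0.11 to 0.28, while its difference went from -1.51 to -1.63. A call lost there therefore cannot tell genotype from poly-A level.

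Paics and Ppat, whose proteins act at separate steps, are neighbours on chromosome 5 and are transcribed in opposite directions, so their start regions are shown before their values, with that of Prps1 as the next largest difference. The sequences are the 250 bases before each RefSeq start, from build GRCm38.p6, each 5′ to 3′ on the gene's own strand, with motif matches in capitals. By the same starts the 5′ ends of Paics and Ppat overlap by 277 bases, so each printed stretch of this pair lies within the other gene. The stretches are chr5:76951052-76951301 on the plus strand for Paics, chr5:76951579-76951828 on the minus strand for Ppat and chrX:140456353-140456602 on the plus strand for Prps1.
Paics: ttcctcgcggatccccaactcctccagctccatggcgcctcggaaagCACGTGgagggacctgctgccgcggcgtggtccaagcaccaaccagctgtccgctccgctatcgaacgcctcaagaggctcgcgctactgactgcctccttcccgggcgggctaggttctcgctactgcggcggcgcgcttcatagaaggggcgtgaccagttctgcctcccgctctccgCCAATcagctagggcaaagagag
Ppat: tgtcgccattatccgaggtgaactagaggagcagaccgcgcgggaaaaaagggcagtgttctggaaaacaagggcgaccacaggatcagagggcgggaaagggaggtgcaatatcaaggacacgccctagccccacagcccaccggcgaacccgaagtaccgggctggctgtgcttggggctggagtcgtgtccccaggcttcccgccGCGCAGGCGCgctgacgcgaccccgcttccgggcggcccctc
Prps1: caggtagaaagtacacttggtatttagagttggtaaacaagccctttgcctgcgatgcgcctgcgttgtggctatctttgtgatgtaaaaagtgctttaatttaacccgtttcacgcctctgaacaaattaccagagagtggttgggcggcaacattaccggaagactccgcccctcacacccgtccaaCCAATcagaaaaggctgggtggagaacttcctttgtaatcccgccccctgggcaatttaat
Capitals mark CACGTG, the E-box that Myc and related factors can bind, CCAAT, and a form of the NRF1 motif, which is GCGC, any base and TGCGC, each sought on both strands. Paics held 1 CACGTG with its first base at position -203 from the start and 1 CCAAT at -23. Ppat held the NRF1 form at -42, and Prps1 held 1 CCAAT at -61. The table of promoters had 10 stretches for 9 of the genes, with 2 for Impdh1 and none for Pfas. Of these 10 stretches 3 held CACGTG (Atic, Paics and Impdh2), 4 held CCAAT (Atic, Paics, Gart and Prps1), 1 held the NRF1 form (Ppat) and 0 held TTGCATCA, a C/EBP-ATF element. Among all 32851 stretches of the same length, CACGTG was in 6.02%, CCAAT in 33.8%, the NRF1 form in 3.74% and TTGCATCA in 0.791%. The 10 stretches were 48.4% to 69.6% G and C, and those with CACGTG or the NRF1 form 60.8% to 68.8%. The median over all 32851 was 52.4%, and the part of base composition in these counts was not tested. A match describes the letters in the window and does not show binding. Probe positions were not used here, so whether any probe lies in the overlap of Paics and Ppat is not given.

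Prps1, the PRPP synthetase on the X chromosome that makes the ribose donor, had 9.25, 9.36 and 9.47 in KO females and 9.12, 9.53 and 9.42 in KO males, against 9.88, 9.76 and 10.23 in WT females and 9.997, 10.20 and 9.86 in WT males. All 6 KO livers lay below all 6 WT livers, and the sexes overlapped within each genotype. The fall was -0.63 ± 0.10 (limma adjusted p = 0.00502), or 1.55-fold lower in KO. Females showed -0.59 ± 0.15 (adjusted p = 0.0427), and males showed -0.67 ± 0.15, which was not called (adjusted p = 0.0709) but was called without WT female 38 (adjusted p = 0.0434). Without that female the male difference stayed at -0.67, and only the shared SE, now 0.13, and the adjustment changed. With the poly-A covariate the difference over both sexes was -0.34 ± 0.25 (adjusted p = 0.761), a smaller value by more than 1.5 times.

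Ppat, which catalyses the committed step, had 6.78, 6.40 and 6.97 in KO females and 7.61, 7.74 and 7.64 in KO males, against 7.90, 7.57 and 7.83 in WT females and 7.73, 7.90 and 8.32 in WT males. The 3 KO females stood below the other 9 livers, while KO males overlapped with WT males. KO female 40, at 6.40, was below the 95th percentile of the negative controls on its array (6.69). Ppat was above that percentile on 5 of 6 KO and 6 of 6 WT arrays, so the size of its fall in females is not exact. The difference over both sexes was -0.69 ± 0.12 (limma adjusted p = 0.00726), or 1.61-fold lower in KO. Females showed -1.05 ± 0.17 (adjusted p = 0.0088), and males showed -0.32 ± 0.17, not called (adjusted p = 0.499, 95% interval -0.71 to 0.06). The direct test of whether the sexes differed gave -0.73 ± 0.25 for females minus males (adjusted p = 0.605). Without a term for sex the call over both sexes was lost (adjusted p = 0.0969), and with the poly-A covariate the difference was -0.77 ± 0.32 (adjusted p = 0.518).

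Gart, which carries several enzyme activities of the early ring steps, lay at 6.49 to 6.87 in KO livers (median 6.70) and 6.72 to 6.86 in WT livers (median 6.75). The KO range enclosed the WT range. The difference was -0.08 ± 0.06 (limma adjusted p = 0.49, 95% interval -0.22 to 0.06), and it turned to 0.078 with the poly-A covariate. Signal lay above the 95th percentile of the negative controls on 1 of 6 KO arrays and on 6 of 6 WT arrays. That percentile was itself higher on KO arrays (mean 6.68) than on WT arrays (mean 6.32), so the split does not show a loss of Gart signal.

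Paics, whose protein carboxylates the first ring and then joins aspartate to it, showed the largest difference of the 8 genes. It had 10.80, 11.16 and 10.93 in KO females and 12.41, 12.18 and 12.43 in KO males, against 12.88, 12.75 and 13.36 in WT females and 13.35, 13.26 and 13.38 in WT males. All 6 KO livers lay below all 6 WT livers, and all 3 KO females lay below all 3 KO males, a relation shared by 6.52% of features, while WT females and WT males overlapped. The fall was -1.51 ± 0.11 (limma adjusted p = 0.000215), or 2.85-fold lower in KO, and Paics ranked 17 of 30768 named genes by p-value. When any 1 mouse was left out the difference ran from -1.57 to -1.42 and stayed called. With the poly-A covariate it was -1.63 ± 0.28 and lost its call over both sexes (adjusted p = 0.127).

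Within females Paics fell by 2.03 on the log2 scale (SE 0.15, limma adjusted p = 0.000598), or 4.09-fold lower in KO, a call kept when the poly-A covariate was added (-2.15 ± 0.29, adjusted p = 0.0454). Within males the difference was -0.99 ± 0.15 (adjusted p = 0.0202), or 1.98-fold lower in KO. The male call was lost without any one of WT males 17, 23 and 33 or KO male 18 (adjusted p 0.0666 to 0.077), at differences of -1.02 to -0.96. The interaction, females minus males, was -1.05 ± 0.22 (unadjusted p = 0.000667) and did not pass over the array (adjusted p = 0.31), where 1 of 65956 features did.

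Adsl, the lyase that acts both before IMP and in the branch to AMP, had 6.21, 6.41 and 6.28 in KO females and 6.40, 6.39 and 6.43 in KO males, against 6.68, 6.57 and 6.88 in WT females and 6.79, 6.50 and 6.57 in WT males. The genotypes did not overlap, but the gap between the highest KO liver and the lowest WT liver was narrow, at 6.43 and 6.50. The difference was -0.31 ± 0.07 (limma adjusted p = 0.0206), or 1.24-fold lower in KO. No KO array and all 6 WT arrays had Adsl above the 95th percentile of the negative controls, a percentile that was itself higher on KO arrays, so the size is not exact. The call was lost without KO male 19 and WT female 38 together (adjusted p = 0.075) and with the poly-A covariate (-0.36 ± 0.18, adjusted p = 0.617).

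Atic, which adds the last formyl group and closes the ring to IMP, lay at 5.46 to 5.64 in KO livers (median 5.57) and 5.54 to 5.79 in WT livers (median 5.72). The ranges overlapped, and the difference was -0.12 ± 0.06 (limma adjusted p = 0.213, 95% interval -0.25 to -0.00048). On all 12 arrays Atic was below the 95th percentile of the negative controls, so a difference in its RNA may be understated.

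Impdh1, an IMP dehydrogenase at the entry to GMP synthesis, lay at 4.04 to 4.38 in KO livers (median 4.24) and 3.93 to 4.20 in WT livers (median 4.05). The 3 KO females lay above the 3 WT females, as did 17.3% of all features, and the males overlapped. The difference over both sexes was 0.16 ± 0.06 (limma adjusted p = 0.159, 95% interval 0.02 to 0.31). Impdh1 too was below that percentile of the negative controls on all 12 arrays, and the median of those controls stood 0.14 higher on KO arrays than on WT arrays.

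Gmps, the GMP synthetase, overlapped between the genotypes. It had 9.48, 8.98 and 9.63 in KO females and 8.44, 9.86 and 8.95 in KO males, against 8.81, 9.37 and 9.12 in WT females and 8.95, 8.93 and 9.05 in WT males. KO males 18 and 19 held the lowest and the highest values of all 12 livers. The SD was 0.53 in KO and 0.20 in WT (n = 6 each). The difference was 0.18 ± 0.22 (limma adjusted p = 0.684, 95% interval -0.31 to 0.68), and without KO male 19 it was -0.01 ± 0.15.

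**Figure D1:**
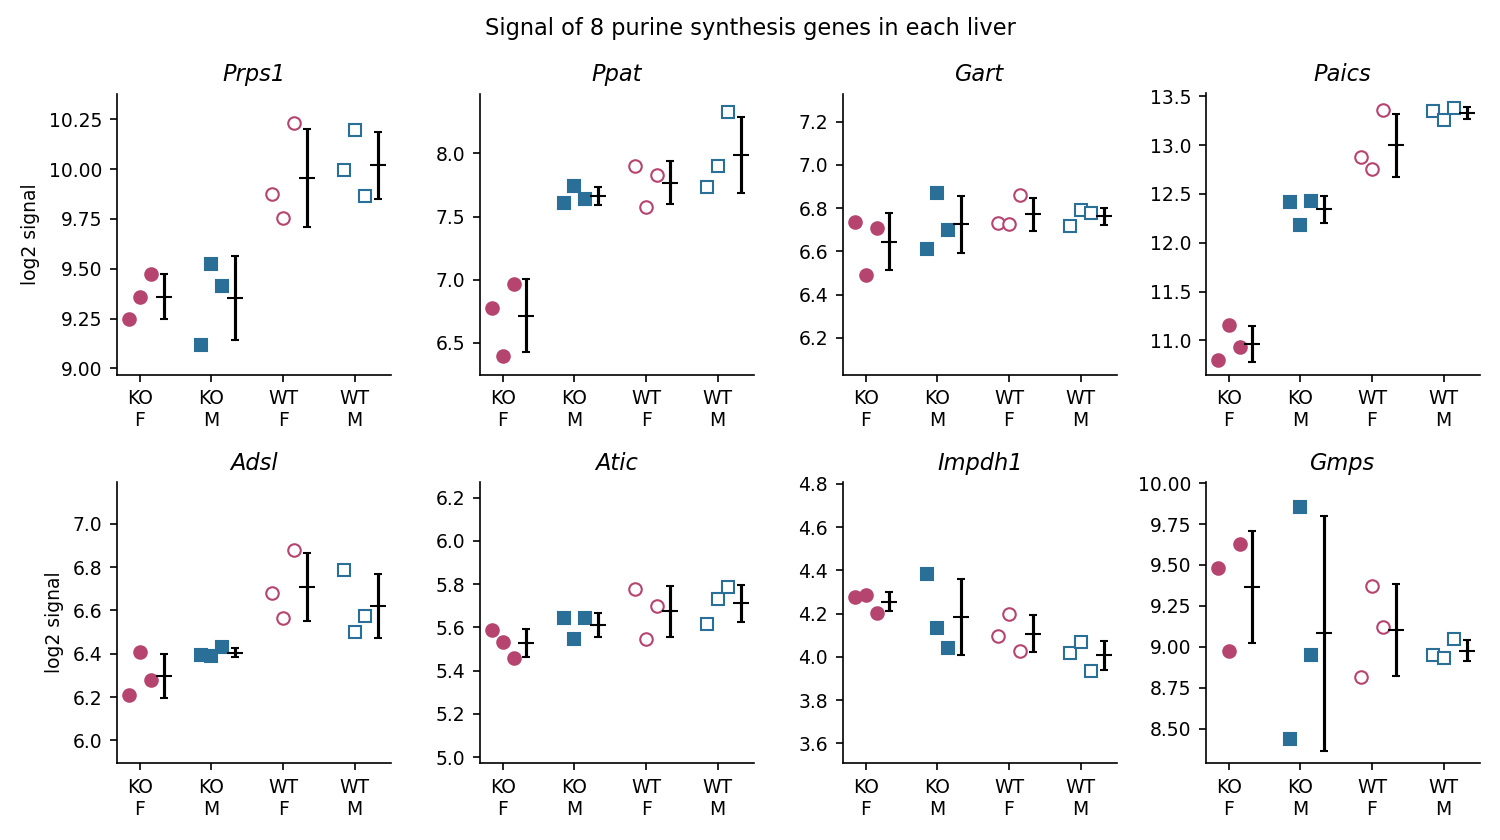
Log2 signal of the 8 measured genes in each liver, by genotype and sex (filled points KO, open points WT; circles females F, squares males M; bars mean ± SD of 3 mice), with a scale of its own in each panel. KO females sit lowest for Paics (10.80 to 11.16) and Ppat (6.40 to 6.97). Both sexes of KO lie below WT for Paics, Prps1 and Adsl, whereas KO males and WT males overlap for Ppat.

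Within sexes the count of called genes differed. In females 4 of 8 fell (Paics, Ppat, Prps1 and Adsl) and none rose, while 3.06% of all features were called lower, 3.13% higher and 6.19% in either direction. In males 1 of 8 fell (Paics) and none rose, while 0.506% of all features were called lower, 0.579% higher and 1.09% in either direction. Every KO female lay below every WT female in the same 4 genes (8.35% of features), and every KO male below every WT male in Prps1, Paics and Adsl (7.49% of features). Leaving out 1 mouse gave 2 to 4 called genes in females and 0 to 2 in males. In females Prps1 lost its call in 9 of the 12 such fits and Adsl in 8 of them, with adjusted p up to 0.142 and 0.141. The female call of Prps1 was kept only without WT female 27, KO male 18 or KO male 19, and that of Adsl only without WT male 17, WT male 23, WT female 27 or KO female 40. Without a male the female differences stayed at -0.59 for Prps1 and -0.41 for Adsl, and only the shared spread and the adjustment changed. The difference between the sexes was tested as an interaction, and limma called 0 of the 8 genes and 0.00152% of all features, the 1 feature being lower, with unadjusted p under 0.05 for Paics and Ppat. An effect called in females and not in males is therefore not shown to differ between them. No KO female was the highest of the 6 KO livers for any of the 8 genes, while KO male 19 was the highest for 4 of them.

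**Figure D2:**
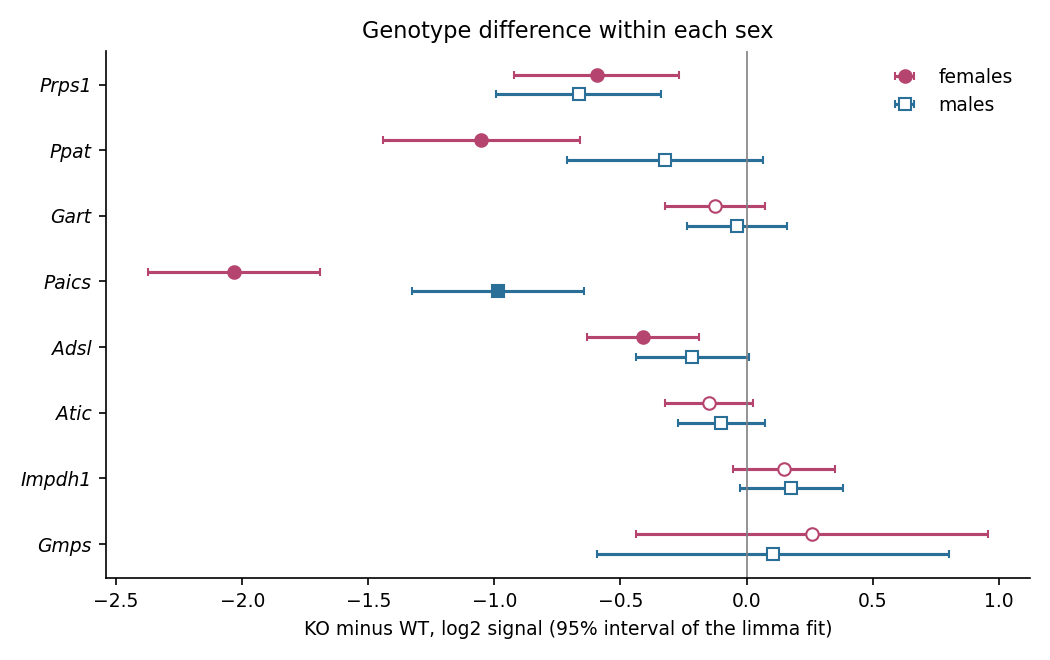
KO minus WT difference in log2 signal within females (circles) and within males (squares) for the 8 genes, with the 95% interval of the limma fit (3 mice per group); filled points were called. Paics differs from 0 in both sexes, at -2.03 in females and -0.99 in males.

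Females and males were also compared over both genotypes to describe how the genes vary. Paics was lower in females by -0.86 ± 0.11 (limma adjusted p = 0.0094) and was the 1 of 8 called, while 1.23% of all features were called, 0.602% lower and 0.623% higher in females. Ppat differed by -0.58 ± 0.12 (adjusted p = 0.0578, not called). These averages take in the KO females, and in WT livers alone females and males overlapped for all 8 genes, whereas 6.15% of features had all WT females below all WT males and 5.88% above.

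Other PRPP synthetase subunits and the enzymes that lead from IMP to AMP extended the description. Of 6 measured genes of 7, 2 fell and none rose, while 4.47% of all features were called lower. Among the 10483 features above the negative controls, 2708 were called lower. Prps2, the second PRPP synthetase of the X chromosome, lay at 5.90 to 6.41 in KO livers (median 6.19) and 6.81 to 7.28 in WT livers (median 6.87), with no overlap. It fell by 0.76 on the log2 scale (SE 0.09, limma adjusted p = 0.00103), with -0.75 in females and -0.77 in males, both called (adjusted p = 0.00782 and 0.0213). Prps2 was above the 95th percentile of the negative controls on 0 of 6 KO arrays and 6 of 6 WT arrays, so its size is not exact. Adssl1, an adenylosuccinate synthetase best known from muscle, fell by 0.62 (SE 0.09, adjusted p = 0.00257), with KO livers at 7.07 to 7.55 and WT livers at 7.71 to 8.10. Adssl1 was called in females and not in males (limma adjusted p = 0.00968 and 0.0932). Adss, the more widely expressed enzyme of the same step, stood at 9.33 to 9.95 in KO livers and 8.54 to 9.48 in WT livers (0.51 ± 0.17, adjusted p = 0.0918, not called), and it was called without WT female 38 (0.65, adjusted p = 0.0211). Prpsap1, a regulatory partner of PRPP synthetase, was at -0.33 ± 0.11 (adjusted p = 0.0956), called without WT female 25 (adjusted p = 0.0485) and at -0.05 with the poly-A covariate. With features above the negative controls as the only ones tested, Adss and Prpsap1 were called (adjusted p = 0.0386 and 0.0399).

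In the supply of ribose phosphate, 4 of 9 measured genes of 11 fell and none rose, with a median of -0.01. Falls were called in 4.47% of all features and in 2708 of the 10483 above the negative controls. Rbks, which phosphorylates ribose, fell by 1.10 (SE 0.10, limma adjusted p = 0.000493) and was called in both sexes. Shpk, which phosphorylates sedoheptulose, was at -0.98 ± 0.11 (adjusted p = 0.000939), the phosphoglucomutase Pgm2 at -0.53 ± 0.12 (adjusted p = 0.0223) and the epimerase Rpe at -0.34 ± 0.09 (adjusted p = 0.0329). Shpk, Pgm2 and Rpe were called in females and not in males. Shpk was at -1.50 in females and -0.46 in males, and the direct test of females minus males was not called (limma adjusted p = 0.31). On KO arrays Shpk was above the 95th percentile of the negative controls on 3 of 6, Rbks on 4 and Rpe on 5. On WT arrays each was above it on 6 of 6. No KO female was above it for Shpk, so these sizes are not exact. Calls for Shpk, Pgm2 and Rpe were lost without a sex term (adjusted p = 0.0618, 0.0739 and 0.0984). Leaving out 1 mouse kept the calls of Pgm2 in 9 of 12 fits (lost without WT male 33, WT female 27 or KO male 39) and of Rpe in 4 of 12 (kept without WT female 25, WT female 27, KO male 19 or KO female 40; adjusted p up to 0.0811). Pgm2 also lost its call after quantile normalization (adjusted p = 0.0613) and Rpe with trend and robust variance (adjusted p = 0.0586). With the poly-A covariate Rpe turned to 0.065.

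Folate carries the formyl groups used by Gart and Atic, and 5 of 21 measured genes of 24 in that list fell while none rose, with a median of -0.43. That count stands beside 4.47% of all features called lower, and 2708 of the 10483 above the negative controls. Slc46a1, among the 5 that fell, was not in that filtered set. Shmt2, the mitochondrial serine hydroxymethyltransferase, lay at 8.64 to 10.56 in KO livers and 10.58 to 11.96 in WT livers and fell by 1.62 (SE 0.16, limma adjusted p = 0.00074), in both sexes. Amt, a subunit of the glycine cleavage system, was at -1.54 ± 0.24 (adjusted p = 0.00404; -0.94 with the poly-A covariate) and Mthfd1, the cytosolic enzyme that makes formyl-tetrahydrofolate, at -0.97 ± 0.16 (adjusted p = 0.00528). Mthfd1 showed -1.51 in females against -0.43 in males, where it was not called (adjusted p = 0.5), and the direct test of females minus males gave -1.09 (limma adjusted p = 0.508), so that a difference between the sexes was not shown. Its call was lost without a sex term (adjusted p = 0.0728) and with the poly-A covariate, where it stood at -1.49 (adjusted p = 0.267). The folate transporter Slc46a1 was at -0.57 ± 0.11 (adjusted p = 0.00932), above the 95th percentile of the negative controls on 0 of 6 KO and 2 of 6 WT arrays, and at -0.04 with the poly-A covariate. Amt and Slc46a1 were called in females and not in males (limma adjusted p in males = 0.125 and 0.287). The last of the 5, outside the naming rule and named after its value was seen, was the cytosolic Shmt1 (-1.10, adjusted p = 0.0208).

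Of the genes that supply glutamine, aspartate and glycine, 2 of 11 measured of 15 fell and none rose, with a median of 0.11. Again 4.47% of all features were called lower, and 2708 of the 10483 above the negative controls. Slc25a13, the carrier that exports aspartate from mitochondria, fell by 1.53 (SE 0.16, limma adjusted p = 0.0008) in both sexes, and Got2, the mitochondrial aspartate aminotransferase, by 1.22 (SE 0.21, adjusted p = 0.00601). Got2 was called in females and not in males (limma adjusted p = 0.0126 and 0.282), and it was at -0.56 with the poly-A covariate (adjusted p = 0.818). Phgdh, the first enzyme of serine synthesis, and Slc1a5, a glutamine transporter, were at 0.14 and 0.23 (adjusted p = 0.174 and 0.213), within the range of the negative controls on all arrays.

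Among 9 measured of 10 regulators that are known to bear on the pathway, 2 rose and none fell, with a median of 0.24. Rises were called in 5.28% of all features and in 2285 of the 10483 above the negative controls, a set that held neither of the 2 regulators that rose. Myc, a transcription factor that binds the E-box and is known to activate purine synthesis genes, was at 5.84 to 7.04 in KO livers and 5.38 to 5.93 in WT livers (0.75 ± 0.21, limma adjusted p = 0.0468). Mxd1, which competes with Myc for their partner Max, was at 0.37 ± 0.10 (adjusted p = 0.042). Within sexes Mxd1 was called in females and not in males (limma adjusted p = 0.0335 and 0.774), and Myc in neither sex. Myc stayed called in 3 and Mxd1 in 5 of the 12 fits that left out 1 mouse (adjusted p up to 0.111 and 0.0956). The fits that kept Myc were those without WT male 17, KO male 39 or KO female 69, and those that kept Mxd1 were without WT male 33, WT female 25 or any one KO male. With median-centred arrays neither was called (adjusted p = 0.0693 and 0.0889), and after quantile normalization Mxd1 was not (adjusted p = 0.0717). Myc signal passed the 95th percentile of the negative controls on 2 of 6 KO and 0 of 6 WT arrays, and Mxd1 on none. Max was at 0.45 ± 0.16 (adjusted p = 0.112) and Atf4, a stress-induced activator of amino acid supply, at 0.39 ± 0.16 (adjusted p = 0.178).

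**Figure D3:**
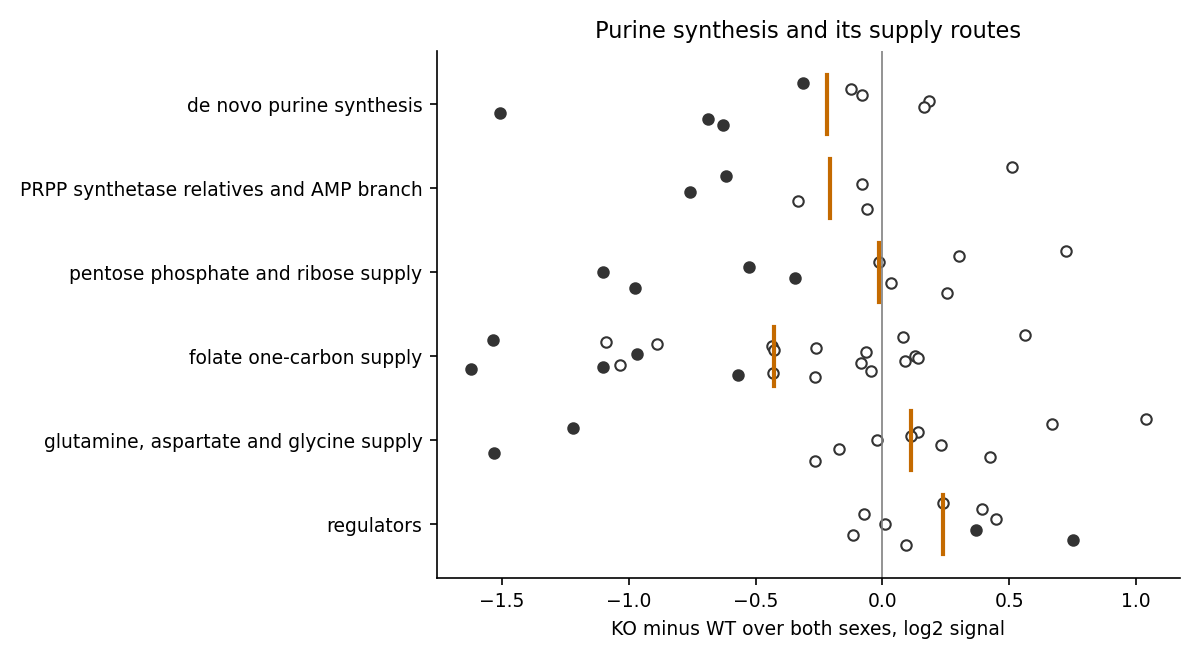
KO minus WT difference in log2 signal over both sexes for each measured gene of the 6 lists; filled points were called, open points were not, and the vertical bar is the list's median. Medians are -0.22 for de novo purine synthesis, -0.43 for folate supply and 0.24 for the regulators.

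Signal of cell type markers also differed between genotypes in the same arrays. The counts below stand beside 5.28% of all features called higher and 4.47% called lower. Among the 10483 features above the negative controls, 2285 were called higher and 2708 lower. Of 12 macrophage markers 11 rose, and their mean log2 signal was 9.37 to 13.31 in KO livers and 7.27 to 8.57 in WT livers. Of 12 neutrophil markers 9 rose, with means of 5.01 to 8.10 in KO and 4.17 to 4.67 in WT livers, and 6 of the 12 lay within the negative control range on every array. Of 10 hepatocyte markers 5 were at the ceiling on every array, Asgr1 (-0.84) and Asgr2 (-1.95), lectins of the hepatocyte surface, fell and none rose, with means of 16.64 to 17.39 in KO and 17.27 to 17.56 in WT livers. Of 15 proliferation markers Mki67, named after its value was seen, was the 1 called (2.13, limma adjusted p = 0.0437), with means of 4.54 to 5.61 in KO and 4.41 to 4.49 in WT livers and 13 of 15 within the negative control range on every array. Mean signals were 4.74 to 5.14 in KO and 4.64 to 4.89 in WT livers for 7 B and plasma cell markers (2 rose), and 4.05 to 5.22 in KO and 3.95 to 4.19 in WT livers for 8 T and NK cell markers (none called). Of 8 endothelial markers 3 rose and 2 fell (7.90 to 9.07 in KO, 8.07 to 8.75 in WT livers), of 8 stellate markers none was called (6.10 to 7.25 in KO, 6.37 to 6.54 in WT livers), of 5 biliary markers 1 rose (4.93 to 6.95 in KO, 4.26 to 5.57 in WT livers), and of 3 erythroid markers none was called (5.47 to 6.56 in KO, 4.66 to 5.77 in WT livers). Among the rest, 6 of 7 B and plasma cell, 7 of 8 T and NK cell, 5 of 8 stellate, 3 of 5 biliary and 2 of 3 erythroid markers lay within the negative control range on every array, and no macrophage, endothelial or hepatocyte marker did. In bulk tissue fewer cells of a type and less RNA per cell cannot be told apart, and the part of these marker differences in the falls of Paics, Ppat, Prps1 and Adsl was not tested.

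**Figure D4:**
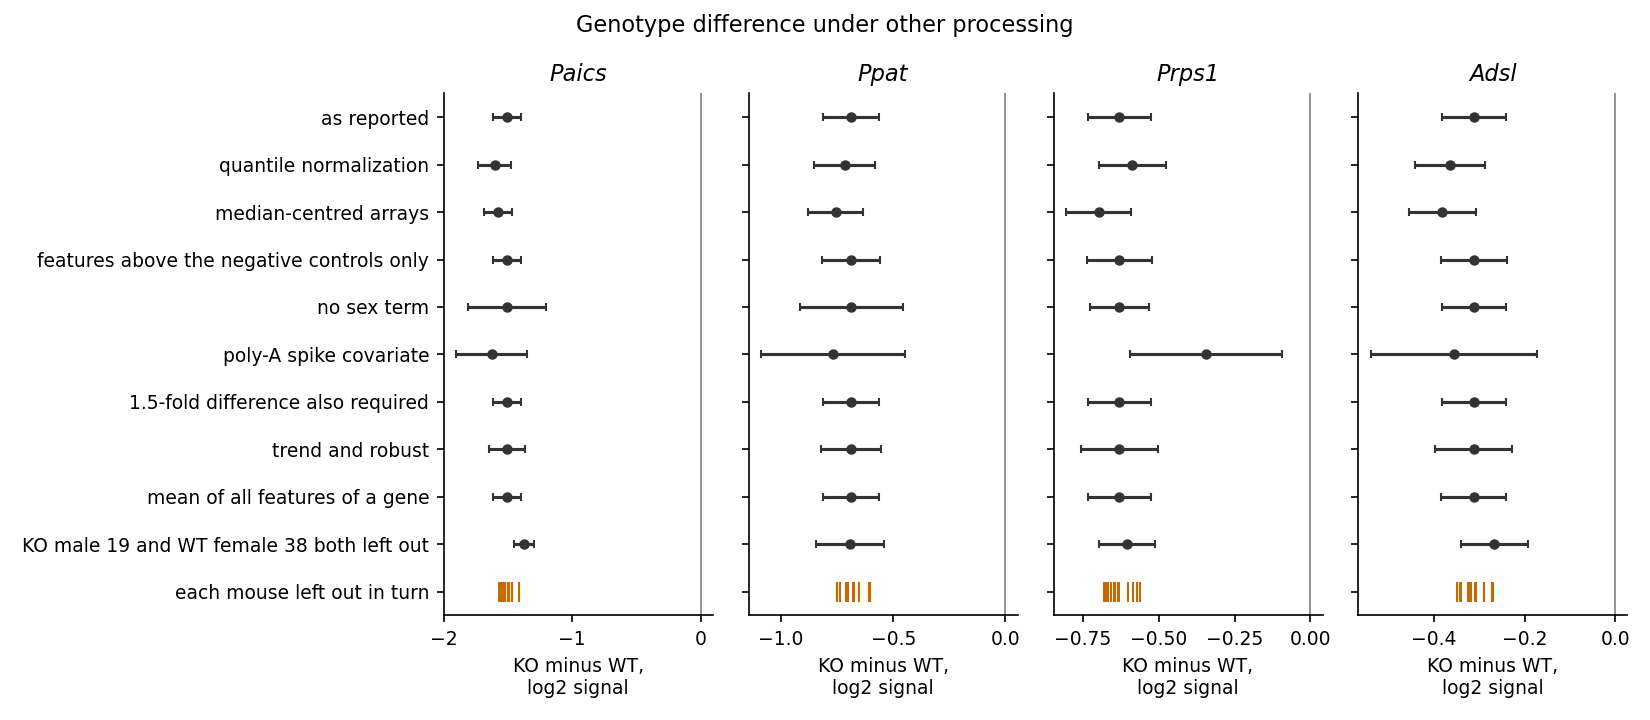
KO minus WT difference in log2 signal over both sexes for the 4 called genes (points, with SE) as reported and under each other setting; the lowest row marks the 12 fits that left out 1 mouse. Paics stays between -1.63 and -1.38 throughout, while Prps1 is at -0.34 with the poly-A covariate. The row of averaged features could not move the differences, as each gene has 1 feature.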

How the data were processed

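The values are the authors' deposited log2 signals, 1 per array feature, from the software Transcriptome Analysis Console as the submitters' processing notes name it. How signals were normalized and summarised, the software version and the build are not given in the labels or files used here. The 6732 control features were left out of tests, leaving 65956 transcript features. Per the platform annotation, with older symbols updated through the RefSeq gene table of GRCm38.p6, 31245 had 1 symbol, 1505 several and 33206 none. Of 30768 genes 30471 were found in that table. Features with several symbols were tested but not named.

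A model of 4 group means (genotype by sex, 3 mice each, 8 residual degrees of freedom) was fitted with limma 3.58.1 in R 4.3.3 (lmFit, eBayes), with no filter on low signal. The fit was also run on simulated data with independent noise. The simulation had no shift between genotypes in poly-A or negative control signal, so it does not cover those shifts. Contrasts were KO minus WT over both sexes, within each sex, their difference, and female minus male. Array measures were set against genotype by exact permutations that kept each sex apart. The number of arrays limits the precision. Signal was set against the 95th percentile of the negative controls on the same array. Promoter sequences are from RefSeq.

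The 10 genes and all lists were chosen with earlier results of these data known. Named were the 10 genes, Slc29a3 and, per pathway list, up to 4 genes of smallest unadjusted p. Alternatives were other scalings, a filter on low signal, no sex term, the poly-A level as a covariate, a 1.5-fold minimum, trend and robust variance, averaged features, and mice left out.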

Additional observations from a re-analysis of the deposited data

How the results depend on the processing

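Over both sexes 4 of the 8 genes were called, and 3 to 4 under the alternatives tried, except with the poly-A covariate, where 0 were called among the 8 and 3 among all features. That covariate largely follows genotype, so calls lost with it do not tell genotype from poly-A level. All 4 kept their direction. Averaging features could not change the values of the 8 genes, each with 1 feature. Of all features 3661 were called with a 1.5-fold minimum, and 4553 to 6599 with 1 mouse left out. In females the count was 1 with the poly-A covariate, 2 with trend and robust variance, 2 without KO male 19 and WT female 38, 2 in a fit to the 6 female arrays, and 2 to 4 with 1 mouse left out. In males it was 2 with the filter on low signal, 2 without that pair of mice, 0 with the poly-A covariate, 0 in a fit to the 6 male arrays, and 0 to 2 with 1 mouse left out. Between the sexes it was 2 with median-centred arrays, 2 with the filter and 0 with the poly-A covariate, against 1 as reported; the interaction count was 0 throughout.

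Signs turned only in results that were not called, apart from Rpe. With the poly-A covariate Gart was at 0.078 over both sexes, 0.029 in females and 0.13 in males, Rpe at 0.065 and Phgdh at -0.030. Without KO male 19 and WT female 38 Gmps was at -0.0064 over both sexes and -0.28 in males, and the interaction of Gart at 0.027. With 1 mouse left out, Gmps ran from -0.011 to 0.34 over both sexes, from -0.28 to 0.43 in males and from -0.17 to 0.54 for the interaction, and Gart in males from -0.11 to 0.019. The interaction ran from -0.046 to 0.21 for Prps1, from -0.11 to 0.0037 for Atic and from -0.10 to 0.070 for Impdh1. The fits without a mouse and the filter change the samples or features tested; the cause of the other changes was not tested. No paired analysis was possible because no animal number occurs in more than 1 group. Signal near the negative controls limits Gart, Adsl, Atic, Impdh1 and Prps2. It also limits Slc29a3, Slc46a1, Phgdh, Slc1a5, Myc, Mxd1 and Atf4, and on some KO arrays Ppat, Rbks, Shpk and Rpe.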
